A study of Mus musculus with 4 samples.

Results

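The genes described here encode receptors of fatty acids and carriers of monocarboxylates, among them those through which a cell meets butyrate. The receptors are the short-chain fatty acid receptors Ffar2 and Ffar3, the hydroxycarboxylic acid receptor Hcar2, and Gpr84, a receptor for medium-chain fatty acids. The carriers are the monocarboxylate transporters Slc16a1, Slc16a3, Slc16a6 and Slc16a7 and the sodium-coupled carrier Slc5a8, and Bsg is a chaperone. The genes were picked by name, 10 genes in all, and 9 of them were among the 16375 genes listed. Slc5a8 was not among the listed genes and was not analysed here. RNA was sequenced from bone marrow-derived macrophages (BMDMs), which are bone marrow cells matured in culture with the growth factor M-CSF. Cells came from WT mice or from mice that lack the long non-coding RNA lncLy6c (LNCKO, a CRISPR-Cas9 deletion of the gene in the whole animal on a C57BL/6J background), and were kept for 24 h with 500 µM butyrate or without it. Each genotype thus had a control and a butyrate group, 4 groups in all with 1 library each. The methods describe C57BL/6 mice a few weeks old and of either sex, and the labels give neither the age nor the number of the mice behind a culture. The groups rest on the sample titles, since the library names of the LNCKO samples, with the letters NC and R3, do not spell out genotype or treatment, and every LNCKO value depends on this.

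Butyrate is a short-chain fatty acid made by gut bacteria from fibre. It can signal at the cell surface through G protein-coupled receptors of the inhibitory Gi class, and it can enter cells through carriers that also move lactate, pyruvate and ketone bodies. Proton-coupled carriers of the SLC16 family need a small membrane glycoprotein, basigin or embigin, to reach the plasma membrane. Inside the cell butyrate inhibits histone deacetylases, which it can reach only after it has been taken up.

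Values are FPKM, the fragments of a gene per kilobase of its length and per 1000000 fragments of the library. The deposited values matched whole fragments on the whole genomic span for 98.6% of the genes with an annotation, so the fragments behind each value could be recovered, and library totals ranged from 53363944 to 65521713. With 1 library per group there is no replicate error. No difference was tested and no p-value was computed. Intervals given below are exact 95% intervals of the fragment numbers and cover counting error only, so they do not show how far a second culture would differ. Changes are log2 ratios of FPKM without a pseudocount, and a gene is counted as past the threshold when it differed at least 1.5-fold. The 4 libraries also differed beyond treatment and genotype: 4 of 4 Y-linked genes were higher in LNCKO, with summed levels of 2.23 and 3.60 fragments per 1000000 in WT against 288 and 308 in LNCKO, so differences of LNCKO from WT cannot be told apart from sex. The deleted lncRNA itself was not analysed here, because lncLy6c is not a name in the gene list.

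Of the receptors, Gpr84 was lower and Ffar2 was higher with butyrate, in both genotypes. Gpr84, a Gi-coupled receptor for medium-chain fatty acids that activated myeloid cells induce, was the only member past 1.5-fold in any of the 4 comparisons. Its FPKM was 3.56 without and 1.97 with butyrate in WT, and 3.70 without and 2.82 with it in LNCKO, from 478, 278, 469 and 439 fragments. Both butyrate libraries lay below both control libraries. In WT the log2 change with butyrate was -0.85 (interval -1.07 to -0.64), which is 1.80-fold lower, and 1.56% of the 11895 genes compared were lower by at least as much. In LNCKO it was -0.39 (interval -0.58 to -0.20), 1.31-fold lower. The WT change minus the LNCKO change was -0.46, with a counting SE of 0.145, and this difference was not tested. Without butyrate Gpr84 was level in the genotypes within counting error, at 0.05 (interval -0.13 to 0.24), and with butyrate it was higher in LNCKO by 0.51 (interval 0.29 to 0.73). These comparisons share libraries and are not independent of each other. Gpr84 lies on the minus strand at chr15:103308235-103310612 of GRCm38, and 681 of its 1725 exon bases overlap the antisense gene Gm49482. Whether the counting used strand is not given in the sources used here.

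Ffar2, a receptor for acetate, propionate and butyrate that couples to Gi and Gq, is carried by granulocytes, macrophages and gut endocrine cells. Its FPKM was 2.13 without and 2.98 with butyrate in WT, and 1.95 without and 2.27 with it in LNCKO, from 653, 959, 565 and 807 fragments. Both butyrate libraries were above both controls, and the WT butyrate library stood highest. The log2 change with butyrate was 0.48 in WT (interval 0.34 to 0.63), 1.40-fold, and 0.22 in LNCKO (interval 0.06 to 0.38), 1.16-fold. Of the genes compared, 6.22% in WT and 9.58% in LNCKO were higher by at least as much. The WT change minus the LNCKO change was 0.27, with a counting SE of 0.108, also untested. In the comparison of genotypes Ffar2 was at -0.13 without butyrate (interval -0.29 to 0.04) and at -0.40 with it (interval -0.53 to -0.26), the opposite sign to Gpr84 under butyrate.

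The ratio of Ffar2 to Gpr84 within a library does not depend on library size. Per kilobase of exon, the level of Ffar2 was 0.845 times that of Gpr84 in WT control and 2.13 times in WT butyrate. In LNCKO the ratio was 0.745 without butyrate and 1.14 with it. The ratio was higher with butyrate in both genotypes, which follows from the changes of the 2 genes given above and is no further result. Gene length cancels from this comparison. Which of the pair was the more abundant depends on the length: with the longest transcript Ffar2 was at 5.03 and Gpr84 at 4.91 in WT control, and by the deposited FPKM Gpr84 was above Ffar2 in LNCKO butyrate. Their intervals per exon length also overlapped in LNCKO butyrate, at 4.12 to 4.73 for Ffar2 and 3.53 to 4.265 for Gpr84.

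The stretches of genome just upstream of these 2 receptor genes are shown because Gpr84 was lower and Ffar2 higher with butyrate. RefSeq gives 1 start for Gpr84 and 4 for Ffar2, of which the outermost is used. Only bases outside the annotated gene are printed, 5′ to 3′ on the gene's strand (GRCm38.p6, minus strand), at chr15:103310613-103310688 for Gpr84 and at chr7:30823776-30824025 for Ffar2. Capitals mark matches to the motifs searched.
Gpr84: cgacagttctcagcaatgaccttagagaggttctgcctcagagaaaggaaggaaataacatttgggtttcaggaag
Ffar2: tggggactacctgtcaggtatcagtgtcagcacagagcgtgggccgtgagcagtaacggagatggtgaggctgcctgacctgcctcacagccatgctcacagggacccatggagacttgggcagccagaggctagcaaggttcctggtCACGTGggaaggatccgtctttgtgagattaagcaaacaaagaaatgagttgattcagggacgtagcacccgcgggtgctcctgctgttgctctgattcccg

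Motifs were searched on both strands: TGTGGT for RUNX factors, GAGGAA for PU.1, ACGTG for HIF, GGGCGG for Sp1, and the NF-kappaB consensus. For HIF only the letters ACGTG were searched, and no other form of its site. In the 250 bases before Ffar2 ACGTG matched on both strands of the same palindrome. Its last base on the gene's strand was 96 bases from the window's end, and the other 4 motifs had 0 matches. Of 32851 RefSeq starts, 16.6% hold ACGTG in a window of this length. The motifs of RUNX, PU.1, Sp1 and NF-kappaB are held by 14.05%, 23.3%, 32.7% and 3.90%. In the 76 bases before Gpr84 all 5 motifs had 0 matches. Of windows of that length, 4.50% hold the RUNX motif, 7.66% that of PU.1 and 4.603% ACGTG. The Sp1 motif is held by 7.81% and the NF-kappaB consensus by 1.03%. These windows, like the Gpr84 bases, are the outermost 76 of the 250 bases before a RefSeq start. They do not reach that start and were not limited to bases outside genes. These counts describe letters in short windows and say nothing of whether a factor binds there.

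Hcar2, a Gi-coupled receptor for butyrate, β-hydroxybutyrate and niacin, was the most abundant of the receptors. Its FPKM was 18.8 without and 19.5 with butyrate in WT, and 21.7 without and 27.1 with it in LNCKO, from 2047 to 3422 fragments. The LNCKO butyrate library stood above the other 3. The log2 change with butyrate was 0.05 in WT (interval -0.04 to 0.14) and 0.32 in LNCKO (interval 0.24 to 0.40), 1.25-fold, the reverse order to that of Ffar2. The WT change minus the LNCKO change was -0.27, with a counting SE of 0.0591, again untested. Hcar2 was higher in LNCKO than in WT by 0.21 without butyrate and by 0.48 with it, where 6.03% of the genes compared were higher by at least as much. Hcar2 is a single exon at chr5:123863570-123865499.

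Ffar3, the second receptor for short-chain fatty acids, was listed at 0 in all 4 libraries. A count of 0 is taken to allow up to 3 fragments, an FPKM of 0.0248 to 0.0304 depending on the library, and the exact interval used for the other members reaches 0.0304 to 0.0374. It lies at chr7:30854330-30856178, between Ffar2 and Ffar1, which responds to long-chain fatty acids. Ffar1 had an FPKM of 1.91 without and 1.76 with butyrate in WT, and 2.18 without and 2.47 with it in LNCKO. Fragments of the cluster were thus listed on both sides of Ffar3 and none on Ffar3 itself.

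**Figure D1:**
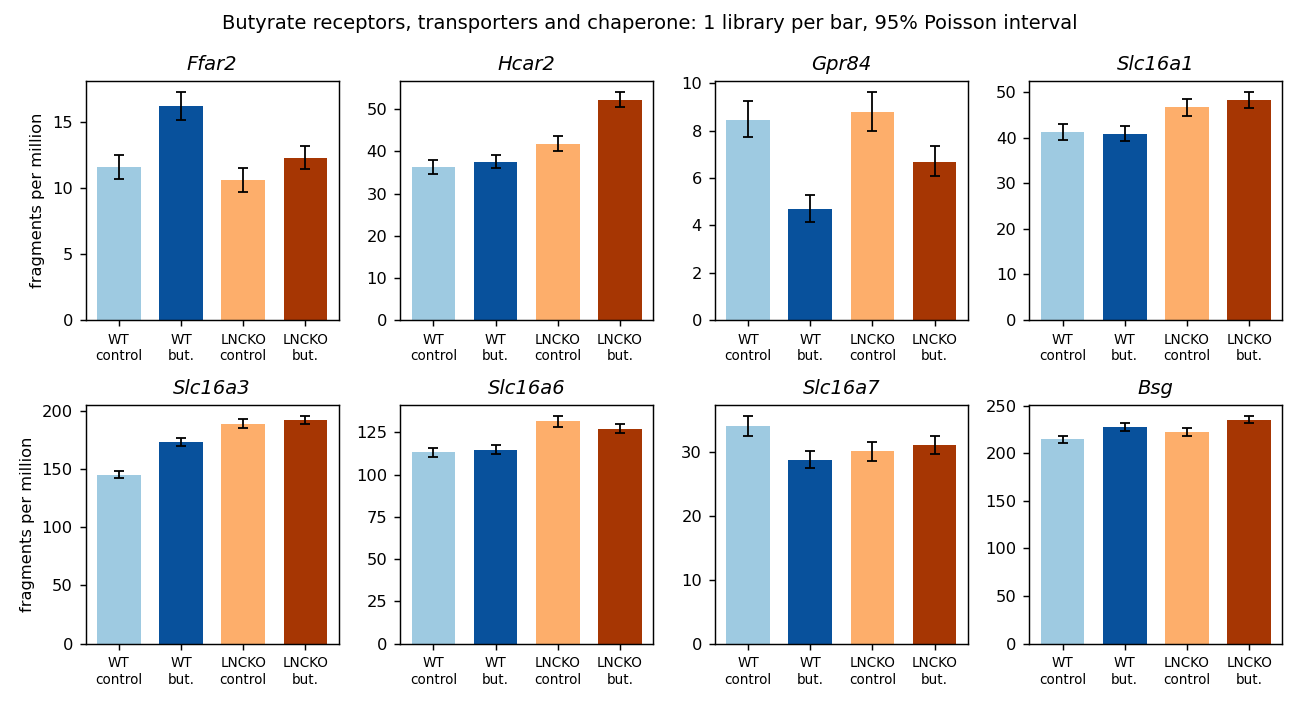
The 8 members with at least 50 fragments on average, as fragments of the gene per 1000000 fragments of the library (vertical axes, from 0), with 1 library per bar and whiskers for exact 95% Poisson intervals, which cover counting error only. Gpr84 is lower and Ffar2 higher in both butyrate libraries, Hcar2 is highest in LNCKO butyrate, and Slc16a3 is lowest in WT control.

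Among the transporters, Slc16a3 (MCT4), the lactate exporter of glycolytic cells, differed most. Its FPKM was 11.7 without and 13.99 with butyrate in WT, and 15.2 without and 15.5 with it in LNCKO, from 8184 to 12580 fragments. The WT control library was the lowest, and both LNCKO libraries were above both WT libraries. The log2 change with butyrate was 0.26 in WT (interval 0.21 to 0.30), 1.19-fold, and 0.02 in LNCKO (interval -0.01 to 0.06). Between the genotypes it was 0.38 without butyrate (interval 0.34 to 0.42), 1.30-fold, and 0.15 with it (interval 0.11 to 0.19). Of the genes compared, 5.52% were higher by at least as much in LNCKO without butyrate. The gene lies on the plus strand at chr11:120948480-120960868.

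Slc16a1 (MCT1), the broad carrier of lactate, pyruvate, ketone bodies and short-chain fatty acids, had nearly the same level with and without butyrate. Its FPKM was 2.08 without and 2.06 with butyrate in WT, and 2.36 without and 2.43 with it in LNCKO. Both LNCKO libraries were above both WT libraries. Its butyrate log2 change was -0.02 in WT (interval -0.10 to 0.07) and 0.05 in LNCKO (interval -0.03 to 0.12). LNCKO was higher by 0.18 without butyrate and by 0.24 with it. Slc16a1 lies at chr3:104638668-104658462 on the plus strand.

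Slc16a6 (MCT7), which has been tied to the export of ketone bodies from liver, was also higher in both LNCKO libraries than in both WT libraries. Its FPKM was 4.97, 5.04, 5.78 and 5.59, for WT without and with butyrate and then LNCKO without and with it. Butyrate changes were 0.02 in WT and -0.05 in LNCKO, and LNCKO was higher by 0.22 without butyrate and by 0.15 with it. Slc16a6 (chr11:109450855-109473598, minus strand) shares 1052 exon bases with Amz2 and 48 with Arsg on the other strand, and how reads were assigned there is not given in the sources used here.

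Slc16a7 (MCT2), a high-affinity carrier, had the lowest level of the transporters. Its FPKM was 0.1999 without and 0.169 with butyrate in WT, and 0.177 without and 0.182 with it in LNCKO, on a span of 170196 bases at chr10:125219270-125389465. The WT control library was the high one. With butyrate its log2 change was -0.24 in WT (interval -0.34 to -0.15), 1.18-fold lower, and 0.05 in LNCKO (interval -0.05 to 0.14). Between genotypes it was -0.18 without butyrate and 0.11 with it, so that the sign differed. It shares 179 exon bases with Gm47862.

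Bsg, the chaperone of MCT1 and MCT4, was the steadiest member. Its FPKM was 28.7 without and 30.4 with butyrate in WT, and 29.7 without and 31.4 with it in LNCKO, from 11854 to 15406 fragments. Both butyrate libraries were above both controls by little: the log2 change was 0.09 in WT and 0.08 in LNCKO, and its full range over the 4 libraries was 0.13 on the log2 scale, against 0.90 for Gpr84. The gene lies at chr10:79704491-79711969.

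**Figure D2:**
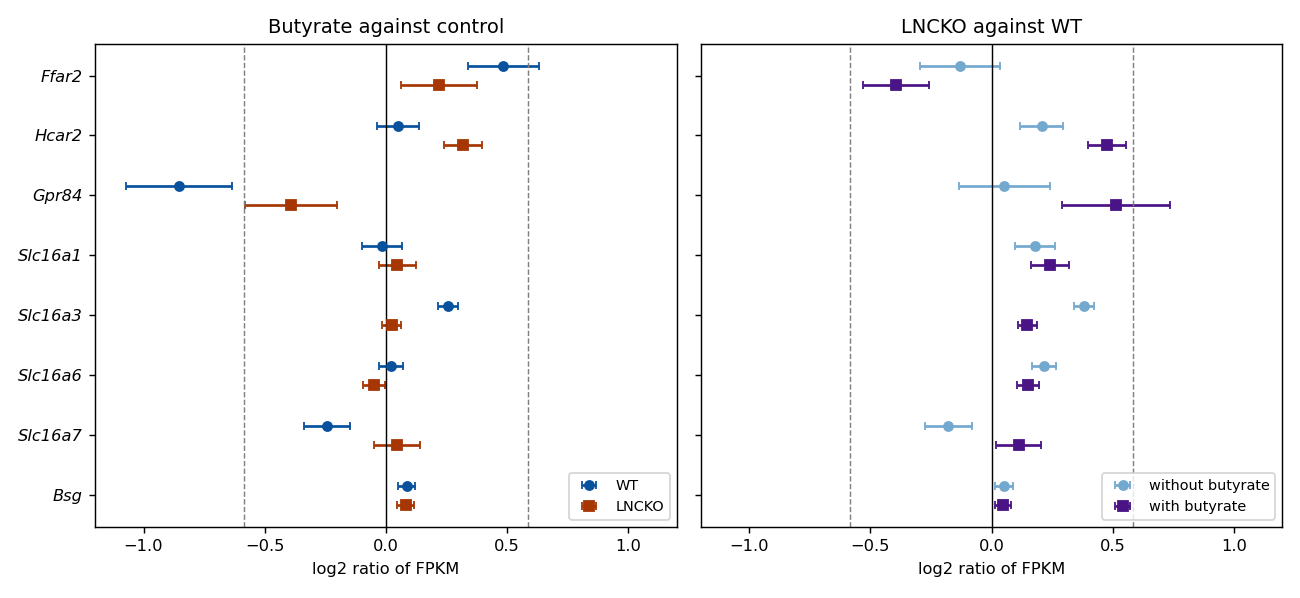
Log2 ratios of FPKM of the 8 members (horizontal axis) for butyrate against control in each genotype (left) and for LNCKO against WT without and with butyrate (right); points are single ratios of 2 libraries, bars are exact 95% intervals for counting error only, and dashed lines mark 1.5-fold. Gpr84 in WT, at -0.85, is the one point beyond a dashed line.

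As a group, the 8 members with at least 50 fragments on average had median log2 changes between 0.03 and 0.15 in the 4 comparisons. With butyrate in WT, 0 of 8 members were at least 1.5-fold higher, where 4.74% of the 11895 genes were, and 1 of 8, Gpr84, was at least 1.5-fold lower, where 3.66% were. The members' median log2 change was 0.03, against -0.05 over all genes compared. In LNCKO 0 of 8 passed in either direction, against 2.72% of genes higher and 1.56% lower, with a median of 0.05 against -0.02. For LNCKO against WT without butyrate 0 of 8 passed, against 2.56% higher and 2.95% lower, and the median was 0.12 against 0.02. With butyrate 0 of 8 passed, against 4.18% higher and 4.54% lower, and 7 of 8 members lay above 0 with a median of 0.15 against 0.05. Ffar2 was the member below 0 there. A share of 1 in 8 rests on 1 gene, and Ffar3, at 0, is not among the 8.

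Levels of different genes can be compared only per length of RNA, so the fragments were divided by the length of each gene's exons. On this scale Bsg was highest, with 118.2 to 129.6 fragments per kilobase of exon and 1000000 fragments of the library over the 4 libraries. Slc16a3 followed with 27.3 to 36.1, Slc16a6 with 23.2 to 26.9 and Hcar2 with 18.8 to 27.1, and the last 2 overlapped. Slc16a1 had 9.21 to 10.9, apart from its neighbours on either side. Ffar2 with 3.79 to 5.81, Gpr84 with 2.72 to 5.09 and Slc16a7 with 2.43 to 2.87 closed the order, and each of these overlapped the next. Within a library Slc16a3 was 2.93 to 3.54 times the level of Slc16a1, and Hcar2 was 3.35 to 6.13 times that of Ffar2. The deposited values were set to the genomic span, which for Slc16a7 is 170196 bases against 11839 bases of exons; whether reads from introns were counted is not given in the sources used here.

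**Figure D3:**
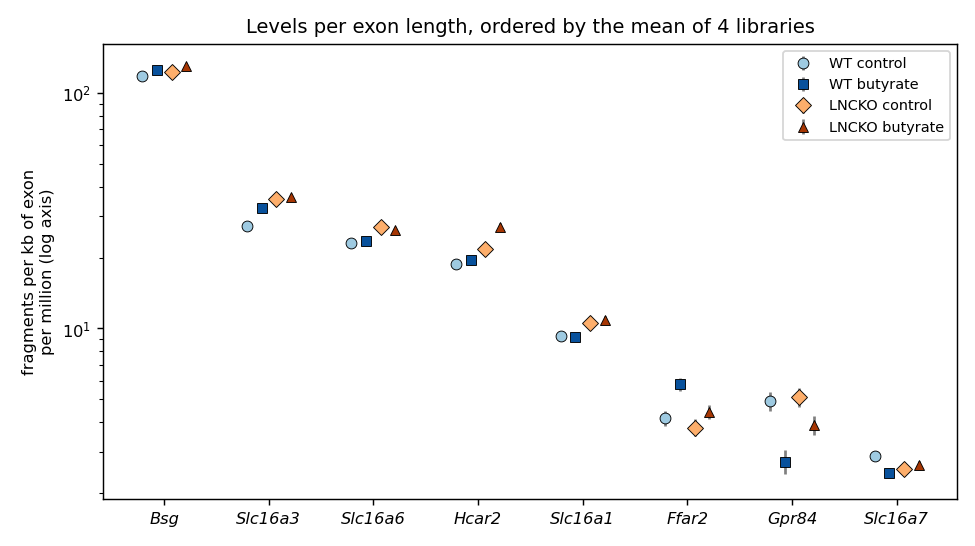
Fragments per kilobase of exon and 1000000 fragments (vertical log axis) of the 8 members in each of the 4 libraries, ordered by the mean; grey bars are exact 95% Poisson intervals. Bsg lies at 118.2 to 129.6, Slc16a3, Slc16a6 and Hcar2 between 18.8 and 36.1, and Ffar2, Gpr84 and Slc16a7 below 6.

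The other carriers and chaperone of the pathway were 12 genes, of which 11 were listed and 4 passed the minimum of 50 fragments. In WT and in LNCKO 1 of these 4, Slc16a9, was at least 1.5-fold higher with butyrate and 0 were lower, where 4.74% and 2.72% of all genes compared were higher, and a share of 4 genes rests on this 1 gene. Slc16a9 (MCT9), a carrier that has been tied to carnitine export, had an FPKM of 0.0217 without and 0.0422 with butyrate in WT, and 0.0202 without and 0.0512 with it in LNCKO. Both butyrate libraries lay above both controls, with a log2 change of 0.96 in WT (interval 0.46 to 1.48) and 1.34 in LNCKO (interval 0.84 to 1.87), at a mean of only 83.3 fragments. Emb, or embigin, a chaperone like basigin, had an FPKM of 11.1 without and 13.9 with butyrate in WT, and 10.8 without and 11.0 with it in LNCKO, a change of 0.32 in WT and 0.02 in LNCKO. Slc16a10, a carrier of aromatic amino acids, was at -0.37 in WT and -0.08 in LNCKO.

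Of 12 other metabolite-sensing receptors 9 were listed and 6 passed the minimum, and 0 of 6 differed 1.5-fold in any of the 4 comparisons. Of all genes compared, 1.56% to 4.74% did so in each direction of a comparison, so a count of 0 among 6 says little. The most abundant of these receptors per exon length were Gpr65, an acid-sensing receptor, and Gpr132, a receptor of oxidised fatty acids and lactate. Gpr65 had a log2 change of 0.06 with butyrate in WT and -0.04 in LNCKO, and Gpr132 of -0.05 and -0.08. Of the 7 G proteins and arrestins, 6 passed the minimum and 0 differed 1.5-fold in any comparison, beside the same shares of all genes. Gnai2, the main Gi subunit of leukocytes, had a log2 change of -0.11 with butyrate in WT and -0.05 in LNCKO. Arrb2, an arrestin that binds activated receptors, had a log2 change of 0.03 in both.

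Of 9 genes of lactate, pyruvate and acyl-CoA handling, 8 were listed and 7 passed the minimum. In any comparison 0 of 7 differed 1.5-fold, where 1.56% to 4.74% of all genes compared did in each direction. Ldha, the lactate dehydrogenase subunit of glycolytic cells, had an FPKM of 39.2 without and 43.1 with butyrate in WT, and 48.7 without and 49.9 with it in LNCKO. The order of the libraries was that of Slc16a3, the lactate exporter, with WT control lowest. Pdha1, a subunit of pyruvate dehydrogenase, had a log2 change of -0.09 with butyrate in WT and -0.05 in LNCKO.

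**Figure D4:**
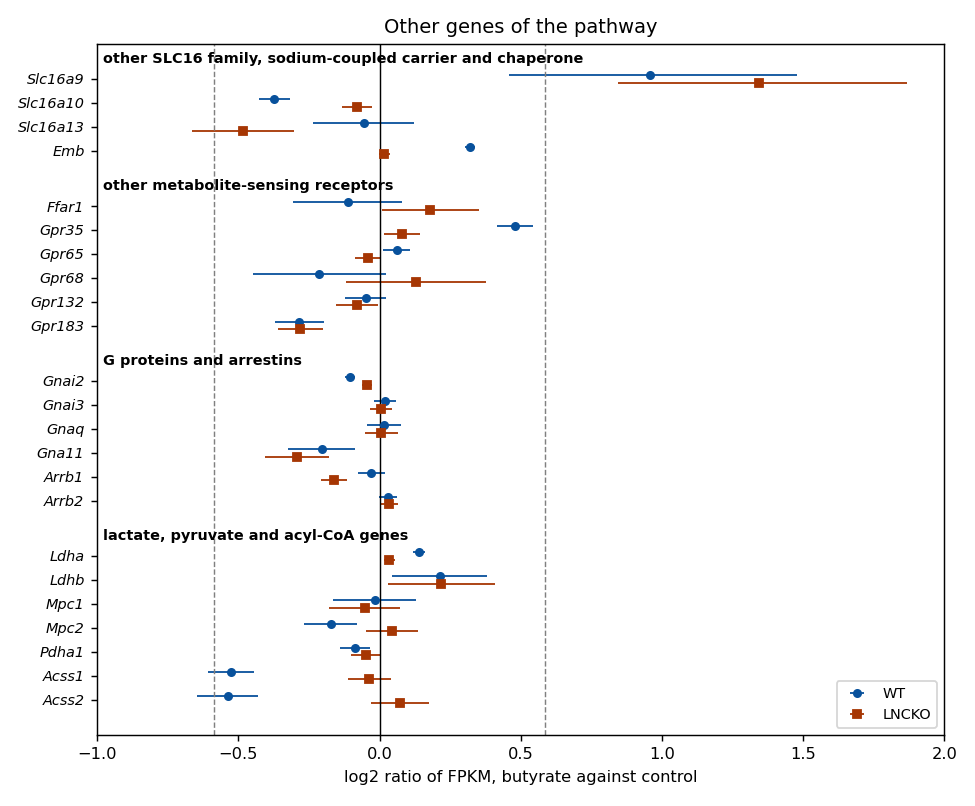
Log2 ratio of FPKM with butyrate against control (horizontal axis) in WT (circles) and LNCKO (squares) for the genes of 4 other lists with at least 50 fragments on average; bars are exact 95% intervals for counting error and dashed lines mark 1.5-fold. Slc16a9 is beyond the upper line in both genotypes, at 0.96 and 1.34.

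Over the 4 libraries, the 3 genes whose profile of log2 FPKM lay nearest to that of Gpr84, by Euclidean distance after centring, were Zfp14 at 0.0718, Alox15 at 0.112 and Ccno at 0.117. Alox15, a lipoxygenase of polyunsaturated fatty acids, had an FPKM of 2.39 without and 1.198 with butyrate in WT, and 2.26 without and 1.76 with it in LNCKO. Zfp14 and Ccno rest on 71 to 152 fragments per library, and a profile of 4 points is a weak description.

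RNA of genes that mark other bone marrow cells was present in the cultures, and such cells carry some of these receptors and transporters as well. All 10 macrophage markers were present in every library, with 6150 fragments or more for each gene. Macrophage markers summed to 15924 fragments per 1000000 without and 20998 with butyrate in WT, and 13822 without and 10103 with it in LNCKO, with a median change with butyrate of 0.17 in WT and -0.02 in LNCKO. Most of that spread was Lyz2, and the other 9 markers summed to 6082 without and 6669 with butyrate in WT, and 5789 without and 5762 with it in LNCKO. Of the 10 macrophage markers, 7 had a log2 change with butyrate above 0 in WT and 3 below. In LNCKO 5 were above and 5 below. Cd14 was at -0.56 in WT and -0.33 in LNCKO, and Mrc1 at -0.12 and -0.26. The 10 genes of neutrophils and their precursors, cells that carry Ffar2, Hcar2 and Gpr84, summed to 7249 fragments per 1000000 without and 9049 with butyrate in WT, and 6547 without and 6134 with it in LNCKO. With butyrate 3 of 10 were at least 1.5-fold higher in WT, where 4.74% of all genes compared were, and 0 of 10 in LNCKO, where 2.72% were, with medians of 0.40 and -0.02. The list did not move as one. In WT 7 of the 10 were above 0 and 3 below, with Camp at -0.45, Ngp at -0.35 and Ltf at -0.19. In LNCKO 3 were above 0 and 7 below. Ffar2 was higher with butyrate in both genotypes and Gpr84 lower in both, and the part of these cells in either was not tested. In such bulk samples fewer cells of a type and less RNA per cell cannot be told apart.

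Erythroid cells carry Slc16a1 and Bsg. Of their 8 markers 7 were listed and 3 passed the minimum, and the list summed to 6.70 fragments per 1000000 without and 7.57 with butyrate in WT, and 23.5 without and 64.5 with it in LNCKO, beside the higher Slc16a1 in LNCKO. Klf1, an erythroid transcription factor, was at 0 in LNCKO butyrate. B cell markers summed to 1415, 1172, 1460 and 1478 in the same order of libraries, and stromal markers to 257, 231, 77.7 and 160. Markers of basophils and mast cells summed to 154, 129, 224 and 217, and those of T and NK cells to 35.7, 34.7, 46.2 and 44.4. Each listed marker of these last 4 lists was above 0 in every library except Gzma, which was at 0 in WT butyrate. The sums hide splits among the genes that passed the minimum. With butyrate in WT, 4 of 7 stromal genes were higher and 3 lower, although their sum was lower. Of 6 basophil and mast cell genes, 3 were higher and 3 lower there. For LNCKO against WT with butyrate, 4 of 5 T and NK cell genes were at least 1.5-fold higher. Of all genes compared, 4.18% were so, and the remaining T and NK cell gene, Nkg7, was lower. The part of these cells in the values of the members was not tested.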

How the data were processed

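The authors deposited FPKM values for 1 library in each of 4 groups of bone marrow-derived macrophages. Their processing notes name GRCm38 (mm10), STAR 2.5.0c, Picard 1.126, bedtools 2.17.0, HTSeq 0.6.0 and DESeq2 without roles, and the methods name a web platform, so the steps, the annotation and the use of strand are not given in the sources used here. Labels and methods differ on kit and sequencer. Columns were tied to samples by the library names in the labels.

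Of 16375 listed genes, 16342 matched GENCODE M21. For each library the total that turns most values into whole fragments was searched, and 98.6% of the matched genes were whole, within 0.05 of a fragment in all 4 libraries, on the genomic span, against 7.48% on exons. 

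Changes are log2 ratios of FPKM for genes above 0 in all 4 libraries and with a mean of at least 50 fragments (11895 genes; 17 others reached this mean but were at 0 in a library). Intervals are exact Clopper-Pearson (ratios) and Poisson (levels). Genes named are the members, genes of 4 pathway lists past 1.5-fold or among the 2 most abundant per exon length, and the 3 genes nearest to the member of widest range; others (Ffar1 and those of the closing section) were named after their values were seen. Marker lists were those of macrophages, neutrophils, B cells, erythroid cells, stromal cells, basophils and mast cells, T and NK cells, and Y-linked genes, the last added after the data were seen. Members and lists were chosen with earlier results of these data known. Steps were tested on simulated data. Scripts used pandas 2.3.3 under Python 3.11.15, with scipy 1.17.1 for the intervals, matplotlib 3.10.9 for plots, and numpy 2.4.6.
Alternatives were pseudocounts of 0.1 and 1, scaling by the median ratio, a mean of at least 10 fragments or no minimum, a 2-fold threshold, and other gene lengths for the order of levels; the macrophage sum without Lyz2 was added after the data were seen.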

Additional observations from a re-analysis of the deposited data

How the results depend on the processing

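No paired analysis was possible because each group holds 1 library and the number 2 that every library name carries makes a single block, and no library could be left out without emptying its group. With 1 culture per group, depth limits little for the members, but differences between cultures were not measured. The count of members lower in WT butyrate, 1 (Gpr84), became 0 with a 2-fold threshold, and the other 7 counts of members stayed at 0 under every alternative run. With a pseudocount of 1 its log2 change was -0.62. Of 32 member changes, 32 stayed within their counting interval with a pseudocount of 0.1, 28 with a pseudocount of 1 and 28 with libraries scaled by their median ratio. That scaling shifted all changes by 0.05 with butyrate in WT, and 1 of 32 changed sign under it, Slc16a1 with butyrate in WT, from -0.02 to 0.03. Ranks by level were the same for 8 of 8 members with the longest transcript as length and for 3 of 8 with the genomic span. Counts over all genes moved more, except under that scaling. With butyrate 564 were higher and 435 lower in WT and 323 and 186 in LNCKO. A pseudocount of 0.1 gave 236, 160, 95 and 48, a pseudocount of 1 gave 62, 36, 25 and 13, a mean of 10 fragments gave 1009, 789, 729 and 486, no minimum gave 1091, 867, 801 and 556, 2-fold gave 210, 123, 136 and 59, and the scaling gave 650, 371, 337 and 175. For LNCKO against WT, 305 were higher and 351 lower without butyrate, and 497 and 540 with it. The same alternatives gave 110, 116, 227 and 226, then 24, 26, 55 and 58, then 683, 777, 854 and 985, then 755, 854, 914 and 1063, then 100, 147, 168 and 192, and then 286, 371, 427 and 608.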

Other observations

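Acss1 and Acss2 activate acetate to acetyl-CoA. Acss2, the cytosolic acetyl-CoA synthetase, had an FPKM of 0.431 without and 0.297 with butyrate in WT, and 0.383 without and 0.403 with it in LNCKO, and its log2 change with butyrate was -0.54 in WT (interval -0.65 to -0.43) and 0.07 in LNCKO (interval -0.03 to 0.17). Acss1, the mitochondrial enzyme, had 0.993, 0.690, 0.953 and 0.929 in the same order, a change of -0.53 in WT and -0.04 in LNCKO. For both genes the WT butyrate library was the low one. They were singled out after their values were seen. Of the other acyl-CoA synthetases in that list, Acsm3 had 8 to 14 fragments per library, too few to compare, and Acss3 was not analysed here.

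Mpc1, a subunit of the mitochondrial pyruvate carrier, had an FPKM of 0.899 without and 0.888 with butyrate in WT, and 1.23 without and 1.19 with it in LNCKO. Both LNCKO libraries were above both WT libraries, by 0.45 without butyrate and 0.42 with it on the log2 scale, and its partner Mpc2 had 1.62, 1.44, 1.56 and 1.61. Gpr35, a receptor of tryptophan metabolites, had 1.72, 2.39, 1.91 and 2.02, a change with butyrate of 0.48 in WT (interval 0.42 to 0.54) and 0.08 in LNCKO. Gpr183, a receptor of oxysterols, was lower with butyrate by nearly the same amount in both genotypes, at -0.28 in each. These 3 genes were also chosen after their values were seen, and none of the differences has a replicate check.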
